A study of Mus musculus with 9 samples.

Results

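Divergent coding gene pairs are neighbours that start back to back, with the transcription start site (TSS) of a gene on the minus strand lying to the left of the TSS of a gene on the plus strand. The regions described here are the BAP1 peaks within 1 kb of either TSS of such a pair. They number 949 of the 13164 peaks listed across the mouse genome, or 7.21%. A pair was formed from 2 different protein-coding genes whose TSSs were at most 1 kb apart, and each gene was given 1 TSS, the 5′ end of its transcript with the longest genomic span. This rule found 848 pairs with 1681 genes, and 732 pairs had at least 1 peak while 116 had none. The pairs were compared with each other, with and without a peak, and with single coding TSSs, which belong to protein-coding genes with no head-to-head partner, coding or noncoding, within that distance.

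The peaks came from ChIP-Seq in Ba/F3, a murine B cell lineage precursor line that depends on IL-3, here supplied by WEHI conditioned medium. Wild type cells were immunoprecipitated with an antibody against BAP1, and cells stably expressing triple-FLAG-tagged murine BAP1, kept under puromycin selection, with an antibody against FLAG. These are 2 of the 9 samples of the series, 1 for each antibody. The other samples are 4 input DNA samples and 3 samples of the histone mark H2AK119ub, in wild type cells and in the Bap1 knockout lines KO3 and KO4, and they were not analysed here. The peaks of both antibodies were deposited as 1 list of positions with no height, score or p-value, so no value for each sample was analysed here and the depth is not known from it. Every interval given below is a 95% interval for counting error only, a Wilson interval for a share, and pairs or peaks are not replicates of a condition.

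BAP1 is a deubiquitinase that removes the ubiquitin of H2AK119ub, a mark of histone H2A written by Polycomb repressive complex 1, and works with partners such as ASXL1 and HCF1 at promoters. In a divergent pair, the stretch between the TSSs serves as the upstream region of both genes at once. Such stretches are usually rich in CpG and GC, mostly lack a TATA box, and often belong to genes of DNA repair, RNA processing and mitochondria.

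The stretches between the TSSs of a few bound pairs show how compact these shared promoters are. They are given as the plus strand of mm9 (NCBIM37), and none overlaps an annotated exon. The first is the pair that holds Bap1 itself, at chr14:32064405-32064674, whose peak covers 32064490 to 32064689. The next are Mrps12 with Sars2 at chr7:29526840-29527009, Tmem111 with Fancd2 at chr6:113481633-113481675 and Orc3 with Rars2 at chr4:34562194-34562205. They were taken from the named pairs to span a DNA repair gene, a mitochondrial gene and stretches of only 43 and 12 bases. Capitals mark matches, on either strand, to any of the 12 motifs described further on.
Phf7-Bap1: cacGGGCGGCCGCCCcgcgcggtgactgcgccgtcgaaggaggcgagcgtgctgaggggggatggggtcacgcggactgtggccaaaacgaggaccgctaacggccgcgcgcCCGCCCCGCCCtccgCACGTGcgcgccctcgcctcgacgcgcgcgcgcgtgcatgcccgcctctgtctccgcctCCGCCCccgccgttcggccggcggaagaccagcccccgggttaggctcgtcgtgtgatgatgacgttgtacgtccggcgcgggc
Mrps12-Sars2: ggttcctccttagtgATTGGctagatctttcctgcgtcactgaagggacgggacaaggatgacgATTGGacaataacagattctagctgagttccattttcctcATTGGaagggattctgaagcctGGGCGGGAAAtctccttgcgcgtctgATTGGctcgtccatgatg
Tmem111-Fancd2: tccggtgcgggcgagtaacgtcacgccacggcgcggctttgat
Orc3-Rars2: agaggcgacttc

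The Phf7-Bap1 stretch held matches to the SP/KLF motif and an E-box, the Mrps12-Sars2 stretch held the CCAAT box of NFY, and in it an SP/KLF match overlaps an E2F match. The stretches of Tmem111-Fancd2 and Orc3-Rars2 held none of the motifs, and both pairs had a peak. The ETS motif CCGGAAG was the one whose share differed most between pairs with and without a peak. The 3 pairs with most ETS matches between the TSSs, among 67 bound pairs with such a match in an exon-free stretch of at most 300 bases and with ties going to the longer stretch, are therefore shown next. They were chosen after the values were seen, and here capitals mark the ETS motif only. They are Gm3417 with 9030025P20Rik at chr17:15115622-15115828, Fbxl6 with Gpr172b at chr15:76369177-76369372 and Emg1 with Phb2 at chr6:124662197-124662339.
Gm3417-9030025P20Rik: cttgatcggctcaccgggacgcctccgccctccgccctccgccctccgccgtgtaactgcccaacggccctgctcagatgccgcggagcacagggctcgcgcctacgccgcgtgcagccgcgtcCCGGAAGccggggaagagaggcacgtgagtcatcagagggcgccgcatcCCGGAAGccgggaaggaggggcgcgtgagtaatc
Fbxl6-Gpr172b: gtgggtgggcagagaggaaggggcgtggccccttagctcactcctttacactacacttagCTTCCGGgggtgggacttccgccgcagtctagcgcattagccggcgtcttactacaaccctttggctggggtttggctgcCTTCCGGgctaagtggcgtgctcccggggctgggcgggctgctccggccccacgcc
Emg1-Phb2: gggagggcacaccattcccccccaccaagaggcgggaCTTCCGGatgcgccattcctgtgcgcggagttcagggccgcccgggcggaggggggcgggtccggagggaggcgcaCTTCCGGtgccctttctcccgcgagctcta

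Each of these 3 pairs had 1 peak. Its middle lay 7 bp from the nearest ETS match in Gm3417-9030025P20Rik, 6 bp in Fbxl6-Gpr172b and 20 bp in Emg1-Phb2, where Emg1 encodes a ribosomal RNA methyltransferase and Phb2 a prohibitin of mitochondria.

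Stretches of pairs without a peak are shown for contrast, and again capitals mark any of the motifs. Hist1h2bl with Hist1h2ai, replication-dependent histone genes at chr13:21808013-21808280, had the highest CpG ratio of all pairs without a peak. Ndufa1 with Rnf113a1 lies at chrX:34731159-34731239, Pqbp1 with Timm17b at chrX:7476396-7476482, and Smc1b with Ribc2 at chr15:84962388-84962528. Ndufa1 encodes a subunit of respiratory complex I, Timm17b a subunit of the mitochondrial import machinery, and Smc1b the cohesin subunit of meiotic cells.
Hist1h2bl-Hist1h2ai: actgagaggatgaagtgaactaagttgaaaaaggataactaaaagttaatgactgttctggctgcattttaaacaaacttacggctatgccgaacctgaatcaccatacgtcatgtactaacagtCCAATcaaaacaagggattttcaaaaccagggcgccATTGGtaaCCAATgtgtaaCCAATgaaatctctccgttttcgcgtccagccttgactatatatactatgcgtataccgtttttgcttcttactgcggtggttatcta
Ndufa1-Rnf113a1: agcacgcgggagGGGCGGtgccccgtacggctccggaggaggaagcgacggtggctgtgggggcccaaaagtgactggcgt
Pqbp1-Timm17b: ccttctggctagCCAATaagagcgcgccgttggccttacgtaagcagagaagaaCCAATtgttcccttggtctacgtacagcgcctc
Smc1b-Ribc2: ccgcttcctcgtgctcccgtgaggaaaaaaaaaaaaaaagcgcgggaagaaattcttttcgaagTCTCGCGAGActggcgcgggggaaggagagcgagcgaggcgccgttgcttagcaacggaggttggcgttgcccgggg

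The Smc1b-Ribc2 stretch holds the CGCG palindrome, and that of Pqbp1-Timm17b holds only CCAAT boxes. Motif matches were thus found in stretches with and without a peak.

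To determine how often BAP1 sat at divergent promoters, the share of pairs with a peak was set beside that of other starts. Of the 848 pairs, 732 had a peak, or 86.3% (83.8 to 88.5). Single coding TSSs had a peak within 1 kb in 32.9% (6619 of 20147), and all protein-coding TSSs in 37.6% (8403 of 22367). Since a pair offers a wider window than 1 TSS, the genes of the pairs were also counted one by one at their own TSS. The window of each gene still holds the TSS of its partner. The same peak can therefore count for both genes, and this count does not remove the advantage of a pair. Of 1681 genes, 1444 had a peak there, or 85.9% (84.2 to 87.5), which exceeded the single TSSs by 53.1 percentage points (51.2 to 54.8). Each of the TSSs had a peak within 1 kb, the same peak or another, in 726 of the 732 bound pairs. With TSSs so close together, the rule itself nearly fixes that count. A peak lay within 500 bp of the centre of the pair in 712 of the 848 pairs.

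Pairs of a coding gene and a noncoding gene, annotated as lincRNA or processed transcript, within the same distance had a peak less often than coding pairs, in 300 of 478 cases or 62.8% (58.3 to 67.0). The difference to coding pairs was 23.6 percentage points (18.7 to 28.5). Coding pairs whose TSSs lay farther apart also had lower shares. A peak lay near either TSS in 72.4% (64.1 to 79.5) of 127 pairs at 1001 to 2000 bp, in 66.3% (60.8 to 71.5) of 297 pairs at 2001 to 5000 bp, and in 64.3% (60.2 to 68.2) of 538 pairs at 5001 to 10000 bp. A peak at either TSS sufficed for these pairs, whereas a single coding TSS was counted alone. Their shares are therefore not directly comparable with that of single coding TSSs.

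**Figure D1:**
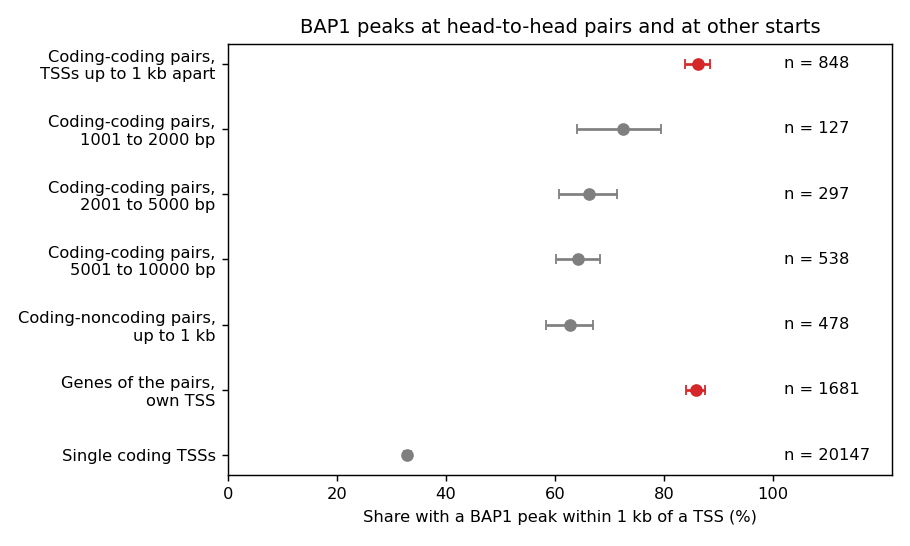
Share (%) of pairs or genes with a BAP1 peak within 1 kb of a TSS, with 95% Wilson intervals and the number of pairs or genes at the right. Coding pairs within 1 kb (86.3%) and their genes at their own TSS (85.9%) lie above all other classes, and single coding TSSs are lowest at 32.9%. Pairs count a peak at either TSS, so their shares are not directly comparable with that of single coding TSSs.

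Among pairs known from general knowledge, 11 were found by the rule, and 10 of them had a peak. Of all 848 pairs 86.3% had a peak, so this count does not set the known pairs apart. The Bap1 gene shares its promoter with Phf7, which encodes a PHD finger protein, across 271 bp. Its only peak had its middle 86 bp upstream of the Bap1 TSS and 185 bp upstream of the Phf7 TSS. Mcm4, a subunit of the replicative helicase, and Prkdc, the catalytic subunit of DNA-dependent protein kinase, start 466 bp apart and had 2 peaks, 70 and 215 bp upstream of Mcm4. These peaks overlap each other, and both lie nearer Mcm4 than Prkdc. In Atm-Npat, the pair of the DNA damage kinase and of the coactivator of histone gene transcription, the peak lay 79 bp upstream of Atm and 228 bp upstream of Npat.

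Hspd1 and Hspe1, which encode the mitochondrial chaperonin and its partner, start 108 bp apart. Their peak lay 45 bp inside Hspd1, 153 bp upstream of Hspe1. In Mrps12-Sars2, a mitochondrial ribosomal protein and the mitochondrial seryl-tRNA synthetase, 1 peak lay 9 bp upstream of Mrps12 and the other 73 bp inside Sars2. Gart-Son also had 1 peak toward each gene, 88 bp upstream of Gart, an enzyme of purine synthesis, and 189 bp inside Son, a splicing protein. Ranbp1-Trmt2a and Toe1-Mutyh had 1 peak each between the TSSs, 17 bp upstream of Trmt2a and 73 bp upstream of Toe1. Peaks of these pairs thus lay either between the TSSs or a short way into a gene.

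In Brca1-Nbr1 the peak was not between the TSSs, which are 270 bp apart. Its middle lay 603 bp inside Nbr1, an autophagy receptor gene, and 873 bp upstream of Brca1, a gene of homologous recombination. Col4a4-Col4a3, the basement membrane collagen genes, had no peak, and the nearest one lay 137953 bp from the centre of the pair.

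The TSSs of the pairs lay close together, with a median distance of 158.5 bp (144 to 171) in the 732 bound pairs and 170.5 bp (135 to 237) in the 116 unbound pairs. These intervals overlap, and the difference of the medians was not tested. The upper quartile was 292 bp in bound pairs and 423.5 bp in unbound pairs. The share with a peak lay between 84.8% and 89.6% in every class of distance up to 500 bp. It was 89.4% (81.5 to 94.1) for 94 pairs at 1 to 50 bp, and 87.9% (80.3 to 92.8) for 107 pairs at 301 to 500 bp. At 501 to 1000 bp it was 75.9% (67.1 to 83.0), in 82 of 108 pairs. The median CpG ratio was also lowest in that class, 0.722, against 0.775 to 0.798 in the others, and its part in the lower share was not tested.

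The short pairs named next were chosen among pairs with a peak, and they show only where it lay. Of the 94 pairs at 1 to 50 bp, 84 had a peak. Wdr54-1700003E16Rik, with TSSs 7 bp apart, had none. Ndufs1, a subunit of complex I, and Eef1b2, a translation elongation factor, have TSSs 3 bp apart, and their peak lay 201 bp inside Eef1b2. Slc7a6os-Prmt7 and Dhrs1-2610027L16Rik, also 3 bp apart, had a peak whose middle lay within 10 bp of both TSSs. In Cct5-Fam173b, at 5 bp, the peak lay 15 bp inside the chaperonin gene Cct5. In Orc3-Rars2, the pair of an origin recognition subunit and the mitochondrial arginyl-tRNA synthetase, the peak lay 11 bp inside Orc3. Lig4-Abhd13, with the ligase of end joining, and Tsc2-Nthl1, with an mTOR pathway inhibitor and a base excision repair glycosylase, had TSSs 21 and 53 bp apart. The peak lay 53 bp inside Abhd13 and 13 bp inside Tsc2. Tmem111-Fancd2, at 44 bp, had its peak 3 bp upstream of Tmem111.

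In the longest bound pairs named here the peak sat beside a TSS, not midway. Abca17 and Abca3, transporter genes 994 bp apart, had a peak 111 bp upstream of Abca3. The peak of Pdzd7-Sfxn3 lay 108 bp upstream of Sfxn3. Abhd14a-Abhd14b had 2 peaks, both at Abhd14a, 15 and 118 bp inside the gene, and Btf3l4-Txndc12 had 2 at Btf3l4. Of the 108 pairs at 501 to 1000 bp, 62 had a peak within 200 bp of 1 TSS only, 11 of both TSSs and 35 of neither. For the 127 pairs at 1001 to 2000 bp, the counts were 53, 27 and 47. The pairs counted under neither include those without any peak, since 82 of the 108 and 92 of the 127 had a peak within 1 kb.

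The positions of the 949 peaks were measured from their middle. Of these, 528 or 55.6% (52.5 to 58.8) lay between the TSSs of their pair, and the median distance from the centre was 82.5 bp. With the nearer TSS as reference, the median position was 11 bp upstream (quartiles 49 bp upstream and 78 bp downstream). For 7640 peaks at single coding TSSs it was 30 bp upstream (84 bp upstream and 38 bp downstream), and 64.8% (63.7 to 65.8) of those lay upstream. Upstream of the nearer TSS means between the TSSs in a pair, so this space is bounded there and open at a single TSS. An interval of 200 bp covered both TSSs in 264 peaks, 1 TSS in 396 and none in 289.

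The share between the TSSs followed the room available. It was 33.7% (25.2 to 43.3) in pairs 1 to 50 bp apart, where 73.3% of the peaks covered both TSSs, and 65.9% (57.2 to 73.6) at 301 to 500 bp. Of the peaks nearer 1 TSS than the other, 473 lay nearer the gene on the plus strand and 474 nearer the gene on the minus strand. The longer gene of the pair was the nearer one in 47.8% (44.7 to 51.0) of the peaks. In pairs with a single peak the share between the TSSs was 68.8% (64.5 to 72.7), of 496 peaks.

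Of the 421 peaks not between the TSSs, 71.0% (66.5 to 75.2) were still within 100 bp of some annotated TSS. Any transcript of any gene counted, including the genes of the pair itself. For the 111 of these peaks over 250 bp from both TSSs of the pair, the share was 41.4% (32.7 to 50.7). Of the 949 peaks, 12.5% lay over 250 bp from both TSSs of the pair, and 3.90% lay over 500 bp away.

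**Figure D2:**
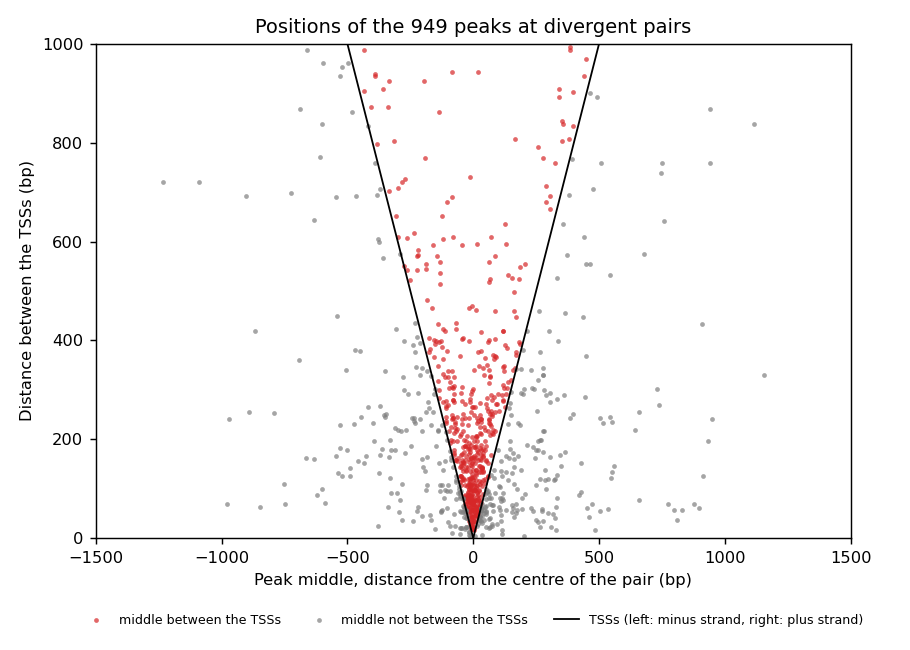
Each point is 1 of the 949 BAP1 peaks, placed by the distance of its middle from the centre of its pair (bp, minus-strand gene to the left) and by the distance between the TSSs (bp), and the black lines are the TSSs. Peaks with their middle between the TSSs (red, 528) fill the wedge at short distances, and above 500 bp points gather along the lines.

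Most bound pairs had 1 peak, in 506 cases, while 217 had 2 and 9 had 3. A second peak was more common when the TSSs lay farther apart, rising from 20.2% of bound pairs at 1 to 50 bp to 45.1% at 501 to 1000 bp. Single TSSs with a peak had 2 or more in 20.5% (1357 of 6619) and pairs in 30.9% (226 of 732), but the window of a pair is longer by the distance between its TSSs. In the pairs with 2 peaks the middles were a median of 245 bp apart (quartiles 161 and 440), and in 85 of the 217 the intervals overlapped, so that a second peak need not be a second site. The peaks lay on opposite sides of the centre in 116 pairs, or 53.5%.

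The pairs with 3 peaks that led by the naming rule were 1810031K17Rik-Fam134a, Ddx5-Ccdc45 and Eif3k-Map4k1. Ddx5, an RNA helicase, had a peak 78 bp upstream of its TSS and 2 more, 731 and 874 bp inside the gene. Eif3k, a translation initiation factor subunit, and Map4k1, a kinase of hematopoietic cells, had peaks 90 bp inside Eif3k, 58 bp upstream of Map4k1 and 830 bp inside Map4k1. In both pairs 1 peak lay between the TSSs and the others inside the genes.

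The base composition of bound and unbound pairs differed. The CpG ratio, the observed count of CpG over that expected from C and G in the 1 kb around the centre, had a median of 0.790 (0.780 to 0.806) in bound pairs and 0.625 (0.544 to 0.692) in unbound pairs. GC content was 61.1% (60.4 to 61.4) and 58.4% (56.7 to 60.0). Single TSSs with and without a peak had median CpG ratios of 0.766 and 0.290.

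Within classes of CpG ratio, pairs still had a peak more often than single TSSs. The ratio was taken around the centre of a pair but around the TSS of a single gene. A pair again counted a peak near either TSS, so the units differ. Between 0.6 and 0.8, 322 of 367 pairs or 87.7% had a peak, against 59.9% of 4740 single TSSs, a difference of 27.9 percentage points (23.9 to 31.2). Between 0.8 and 1 the shares were 94.7% of 337 pairs and 72.5% of 3399 single TSSs, 22.2 points apart (18.9 to 24.6). All 29 pairs above 1 had a peak, which allows a share down to 88.3%, and Phf7-Bap1 with a ratio of 1.01 and Elavl1-Ccl25 with 1.09 were among them. In the range from 0.4 to 0.6 the difference was 45.9 points (34.8 to 54.9), with 73.0% of 74 pairs. Counted gene by gene, where the same peak can again count for both genes, the differences from 0.4 upward were 22.1 to 44.5 points.

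Pairs poor in CpG were few. Of the 41 pairs with a ratio of at most 0.4, 8 had a peak, and in them the middle lay a median of 218 bp from the nearer TSS, against 55 bp for pairs above 0.6. Of the 9 peaks of these 8 pairs, 4 lay between the TSSs and 4 lay over 250 bp from the nearer TSS. Bound pairs with low ratios included Nt5c3l-Klhl10 with 0.17 and 4930442H23Rik-Dapk3 with 0.26. Their peaks lay 699 bp inside Nt5c3l and 943 bp inside 4930442H23Rik. Neither of these peaks lay between the TSSs.

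**Figure D3:**
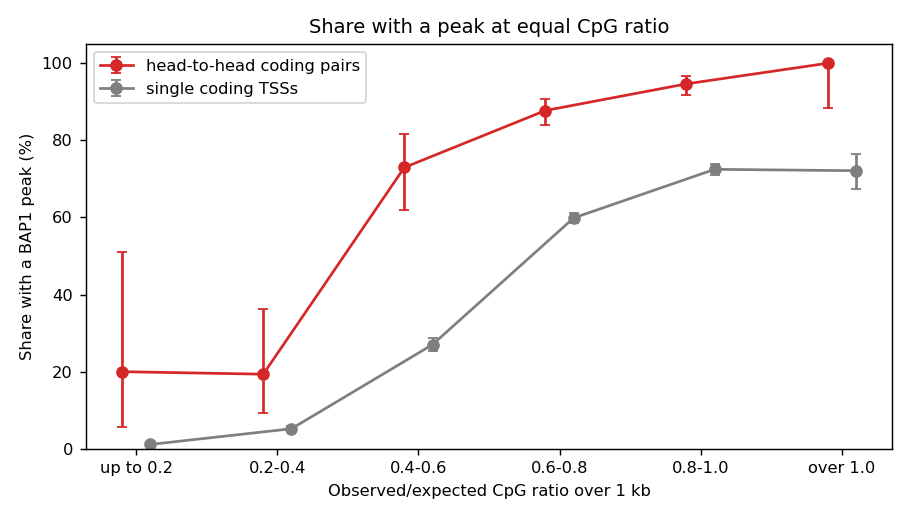
Share (%) with a BAP1 peak within 1 kb by class of CpG ratio over 1 kb, for divergent coding pairs (red) and single coding TSSs (grey), with 95% Wilson intervals. Pairs lie above single TSSs in every class, from 20.0% against 1.13% in the lowest to 100% against 72.1% in the highest, and the lowest class holds only 10 pairs. A pair counts a peak near either TSS, so the units differ.

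The pairs were next grouped by the function of their genes, using 12 lists made from gene symbols, which also take in some genes of other function. A pair counted when either gene was in the list. RNA polymerase, splicing and RNA processing had a peak in 67 of 68 pairs, or 98.5% (92.1 to 99.7), and DNA repair and replication in 46 of 47, or 97.9% (88.9 to 99.6). Genes of these lists outside divergent pairs had a peak in 86.2% and 79.5%. Such genes were counted at their own TSS, while a pair counted a peak near either gene, listed or not. Here and below, the shares of pairs and of genes outside pairs thus differ in unit. A gap between them cannot be assigned to the listed genes. Pairs in none of the lists had a peak in 449 of 535 cases, or 83.9% (80.6 to 86.8).

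Of the 174 coding genes listed for DNA repair and replication, 47 or 27.0% were in such pairs. The share was 7.52% of all coding genes, 22.9% of the RNA list and 20.8% of the mitochondrial list. DNA repair and replication genes in bound pairs included Mcm4, Prkdc, Atm, Brca1, Fancd2, Lig4, Mutyh, Nthl1 and Orc3. The pair without a peak was Apex2-Pfkfb1 on the X chromosome, which joins a base excision repair endonuclease and an enzyme of glycolytic control. Its CpG ratio was 0.22, and the nearest peak lay 111621 bp away. In the RNA list the bound pairs included Polr1c-Yipf3, with a subunit of RNA polymerases I and III and a peak 4 bp upstream of Polr1c. Srsf11-Lrrc40, with a splicing factor, had its peak 10 bp upstream of Srsf11, and Eif2b1-Gtf2h3 had it 50 bp inside Eif2b1. The exception was Cdc40-Wasf1, a splicing factor gene beside an actin regulator gene, whose nearest peak lay 420614 bp away although its CpG ratio was 0.794.

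Mitochondrial ribosome, import and respiratory chain genes had a peak in 52 of 56 pairs, or 92.9% (83.0 to 97.2), and 83.3% of the listed genes outside pairs had one. Mrps21-C920021L13Rik, with TSSs 6 bp apart, had its peak 30 bp inside the plus-strand gene, and Helq-Mrps18c, a DNA helicase gene beside a ribosomal protein gene, had it 61 bp inside Mrps18c. The pairs without a peak were Ndufa1-Rnf113a1, Pqbp1-Timm17b, Slc25a27-Cyp39a1 and Uqcr10-Zmat5. Uqcr10 encodes a subunit of complex III, and its nearest peak lay 66495 bp away. Their CpG ratios, 0.710 to 0.883, lay within the range of bound pairs.

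Cytosolic translation and tRNA genes had a peak in 37 of 39 pairs (94.9%, 83.1 to 98.6), against 66.7% of listed genes outside pairs. S100pbp-Yars, with the tyrosyl-tRNA synthetase, had 2 peaks, 84 bp inside S100pbp and 240 bp inside Yars. Rnf151-Rps2 and Wdr54-1700003E16Rik had none. The first of these had a CpG ratio of 0.16 at the TSS used, and its nearest peak lay 1914 bp from the centre. Ubiquitin and proteasome genes had a peak in 35 of 38 pairs (92.1%, 79.2 to 97.3), against 61.8% outside pairs. Dnajc2-Psmc2, with an ATPase of the proteasome, had its peak 6 bp upstream of Dnajc2. Fbxo44-Fbxo2, a pair of F-box genes, had none within 8255 bp of its centre.

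Cell cycle and division genes had a peak in 36 of 41 pairs (87.8%, 74.5 to 94.7), against 78.2% outside pairs. Brd8-Kif20a, with a mitotic kinesin, had 2 peaks, 16 bp inside Brd8 and 296 bp inside Kif20a. Tubgcp2-Zfp511, with a subunit of the gamma-tubulin complex, also had 2. Smc1b-Ribc2, 2610109H07Rik-Mad2l2, Ccnt1-4930415O20Rik, Cdc40-Wasf1 and Gpc2-Stag3 had none, the last of these being named after its value was seen. Ccnt1-4930415O20Rik had a CpG ratio of 0.21 at the TSSs used, and its nearest peak lay 3221 bp from the centre. Smc1b and Stag3 encode cohesin subunits of meiosis, Mad2l2 a subunit of a translesion polymerase, and Ccnt1 a cyclin of transcription elongation. Numbered zinc finger genes had a peak in 22 of 25 pairs (88.0%, 70.0 to 95.8), against 57.3% outside pairs.

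Of 67 clustered histone genes, 27 or 40.3% were in such pairs, the largest share of the 12 lists. In 13 of the 14 pairs both genes were histones. A peak lay at 11 of the 14 pairs, or 78.6% (52.4 to 92.4), against 82.5% of histone genes outside pairs. Hist1h2ah-Hist1h2bk had its peak 236 bp inside Hist1h2ah, and Gm17658-Hist1h4d had it 41 bp upstream of Gm17658. Hist1h2bl-Hist1h2ai, Hist1h2ae-Hist1h2bg and Hist1h2ba-Hist1h2aa had none, and their nearest peaks lay 1492, 2986 and 170592 bp from the centre. The Hist1h2ap-Hist1h2br and Hist1h2bq-Hist1h2ao stretches between the TSSs, 167 bases each, are reverse complements of each other with 0 differing bases. Read pairs that lie wholly within these stretches therefore cannot be told apart by sequence.

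Cytokine, chemokine and leukocyte surface genes had a peak at 5 of 11 pairs, or 45.5% (21.3 to 72.0), and at 11.2% of the listed genes outside pairs. Il11-Tmem190, Il17rb-Chdh, Ccr10-Cntnap1 and Gpr3-Cd164l2 had none, and their CpG ratios were 0.11 to 0.61. Cd160-Pdzk1 and Smyd1-Cd8b1, the other pairs without a peak, and H2-T22-Gm6034, with 1 peak, were named after their values were seen. The other bound pairs were Elavl1-Ccl25, H2-Ke2-Wdr46 and Tnfaip1-Ift20. Of these, H2-Ke2 encodes a prefoldin subunit from the major histocompatibility region and Tnfaip1 an adaptor of a ubiquitin ligase, so that the chemokine gene Ccl25 is the member its list is named for, beside the RNA-binding protein gene Elavl1. Elavl1-Ccl25 counts as 2 pairs, because the annotation holds Ccl25 under 2 identifiers. In all, 8 pairs repeat the symbols of another pair in this way. Collagen and matrix genes were in 2 pairs, Col4a4-Col4a3 and Fn1-Apol7d, and nerve or muscle channel genes and defensin genes in 1 pair each, Gabrg3-Gm9962 and Gm11048-Defa3. None of these had a peak.

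**Figure D4:**
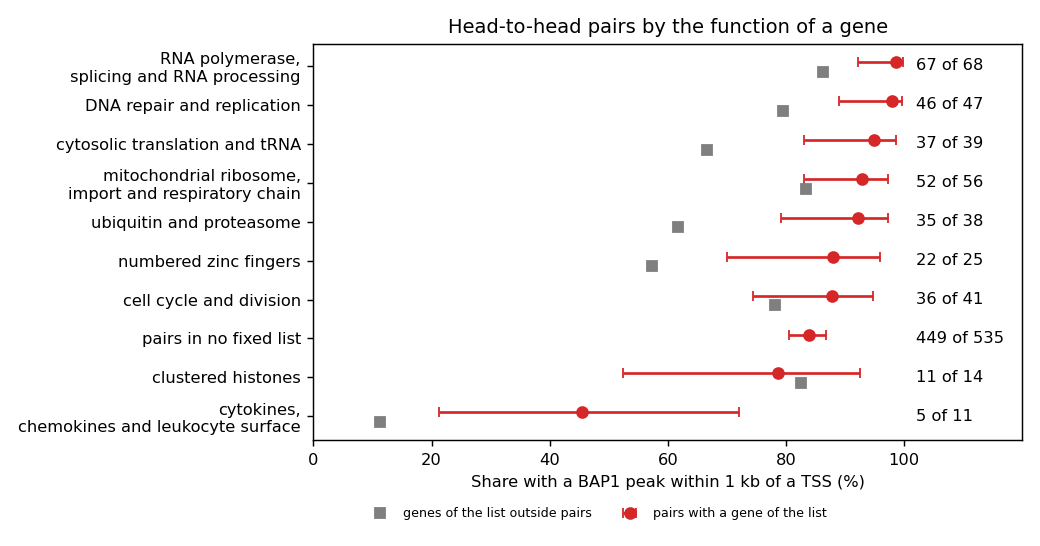
Share (%) of divergent coding pairs with a BAP1 peak within 1 kb (red, 95% Wilson interval, counts at the right) by function list, and share of the listed genes outside such pairs (grey squares), for lists with at least 10 pairs. RNA processing and DNA repair pairs lie at the top with 98.5% and 97.9%, and cytokine and leukocyte surface pairs at the bottom with 45.5%. A pair counts a peak near either gene, so red and grey shares differ in unit.

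The sequence around the pairs was searched on both strands for 12 motifs, in the 300 bp around each centre. Those of factors common at housekeeping promoters were CCGGAAG for the ETS family, GCGCATGC for NRF1, CCAAT for the trimeric factor NFY, GGGCGG for the SP/KLF family and AANATGGC for YY1, a known partner of BAP1. The others were TTTCCCGC for the E2F family, TGACGTCA for CREB/ATF, the E-box CACGTG, the CGCG palindrome TCTCGCGA, ACTACAATT for ZNF143, GTAAACA for the forkhead factors (FOX) and, for the TATA box, TATAAA. Matches of different motifs may overlap. The ETS motif was present in 31.8% (28.6 to 35.3) of bound pairs, 5.17% (2.39 to 10.8) of unbound pairs and 11.0% of all coding promoters. For these, windows of the same length ran from 250 bp upstream to 50 bp downstream of the TSS. YY1 was present in 14.3% (12.0 to 17.1) of bound and 2.59% (0.883 to 7.33) of unbound pairs, with 6.66% of all coding promoters. NRF1 was present in 7.10% (5.46 to 9.20) of bound and 0.862% (0.152 to 4.72) of unbound pairs, with 3.30% of all.

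The SP/KLF motif was common in both, in 70.4% (67.0 to 73.5) of bound and 54.3% (45.2 to 63.1) of unbound pairs. The intervals overlapped for NFY, at 43.0% (39.5 to 46.7) and 36.2% (28.0 to 45.3). The TATA motif was in 4.24% (3.00 to 5.95) of bound and 6.03% (2.95 to 11.9) of unbound pairs, both below the 13.3% of all coding promoters. In the peaks themselves, the ETS motif was found in 27.2% (24.4 to 30.1) of the 949 peaks and in 20.5% of peaks at single coding TSSs, and SP/KLF in 63.3% (60.2 to 66.3) and 69.8%. The ETS matches in the peaks lay within 50 bp of the middle in 63.3% and the NRF1 matches in 75.5%. Other motifs ranged around the ETS value, with 71.05% for CREB/ATF, 62.2% for SP/KLF, 50% for YY1 and 33.3% for E2F. A central place was thus not particular to ETS, and no share for randomly placed matches was computed.

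**Figure D5:**
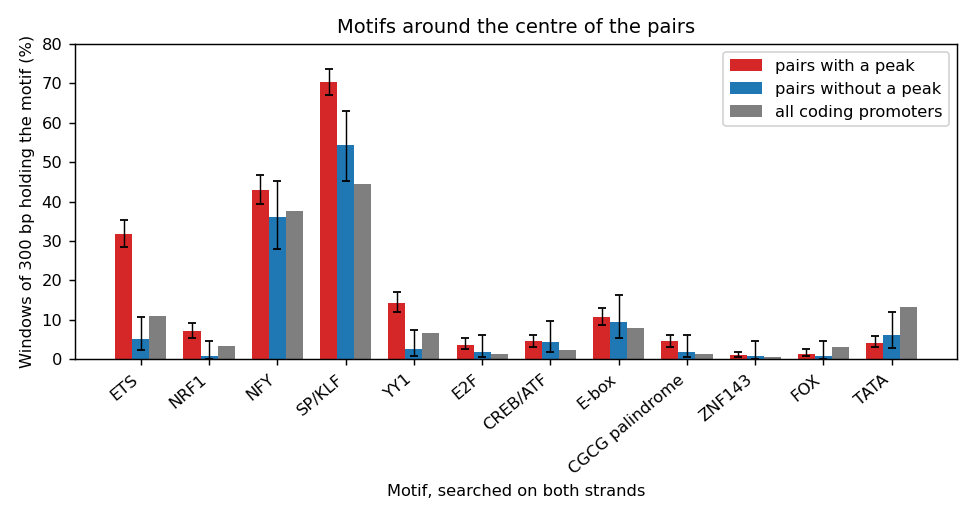
Share (%) of 300 bp windows that hold each motif on either strand, for pairs with a peak (red), pairs without a peak (blue), both with 95% Wilson intervals, and all coding promoters (grey). ETS, YY1 and NRF1 show the widest relative gap between bound and unbound pairs, 31.8% against 5.17% for ETS.

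Of the 239 pairs with the ETS motif, 233 had a peak, or 97.5% (94.6 to 98.8), against 499 of 609 pairs without it, or 81.9% (78.7 to 84.8). CpG ratio moved with this, so the shares were also taken within classes of it. Up to 0.6 they were 83.3% (60.8 to 94.2) of 18 pairs with and 48.5% (38.8 to 58.3) of 97 pairs without the motif. From 0.6 to 0.8 they were 98.0% (93.0 to 99.5) of 100 and 83.9% (79.0 to 87.8) of 267 pairs, and above 0.8 they were 99.2% (95.5 to 99.9) of 121 and 93.1% (89.2 to 95.6) of 245 pairs. Single TSSs showed the same order, with 87.5% of 767 against 54.5% of 3973 in the class from 0.6 to 0.8. The 6 pairs with the motif and no peak included Chpf-Tmem198, Fbxo44-Fbxo2, Gml-Hemt1, Ndufa1-Rnf113a1 and F8-Fundc2, several of them named after their values were seen. In Ndufa1-Rnf113a1 the match lies in the window but outside the stretch printed above.

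In the pairs without a peak, the nearest peak lay a median of 57121 bp from the centre. The rule excludes peaks within 1 kb of either TSS, and this distance was not compared with that of other positions. The nearest peak lay within 10 kb in 21 of the 116 and beyond 100 kb in 37. Bound pairs were spread over all 20 chromosomes with pairs. The X chromosome had the lowest share, 11 of 19 pairs or 57.9% (36.3 to 76.9), against 721 of 829 or 87.0% (84.5 to 89.1) on the autosomes. Single coding TSSs on the X chromosome had a peak in 19.8% (17.3 to 22.6), against 33.5% on the autosomes. Ndufa1-Rnf113a1, Pqbp1-Timm17b, Apex2-Pfkfb1 and F8-Fundc2 were among the 8 unbound X-linked pairs.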

How the data were processed

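BAP1 was mapped by ChIP-Seq in Ba/F3 cells with an anti-BAP1 and an anti-FLAG antibody, 1 sample each. The authors mapped the reads to mm9 and called peaks against input DNA, with Bowtie 1.0.0 and MACS 1.4.2 named in the submitters' processing notes. They deposited 1 list of 13164 peaks as chromosome, start, end and name, and all intervals were 200 bp wide. How the samples were joined into a list, and at which threshold, is not given in the sources used here. Another choice would change every share with a peak. The list holds no count, signal, score or p-value, so the depth is not known from it, and 0 columns of per-sample values were left unused.

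Coordinates were compared with NCBIM37 (mm9) and GENCODE M1, which lists 37273 genes, 22367 of them protein-coding. Each peak belonged to a pair when its middle lay within 1 kb of either TSS, and its position was measured in the pair with the nearest centre. Of the 848 pairs, 30 shared a gene with another. Because each antibody had 1 sample, no test between samples was made. Shares have 95% Wilson intervals, differences Newcombe intervals and medians order-statistic intervals. These cover counting error only, and pairs and genes are not independent replicates.

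The pairs, gene lists and motifs were chosen with earlier results of these data known. The pairs named are those with a gene of a hand-made list of known pairs, up to 4 of each function list with the shortest distance with and without a peak, the 5 shortest and 5 longest bound pairs, the 3 with most peaks, the 3 bound pairs of lowest and the 3 unbound pairs of highest CpG ratio. A few pairs named by this rule are counted but not reported here. The ETS motif within classes of CpG ratio, the pairs with most ETS matches, the split by peaks at 1 or both TSSs, the list of gene models and the unbound pairs of high CpG ratio were added after seeing the data. The alternatives were other windows, other largest distances, the edge of the peak, merging of peaks within 500 bp, overlapping pairs and another CpG window. Further alternatives were the first start of any protein-coding transcript as TSS, each gene in at most 1 pair, autosomes only, and 1 kb around the centre. Pair finding, peak assignment, merging, intervals and motif search were tested on simulated data. Computations used pysam 0.24.0, pandas 2.3.3, numpy 2.4.6, scipy 1.17.1 and matplotlib 3.10.9 under Python 3.11.15, and bedtools 2.31.1.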

Additional observations from a re-analysis of the deposited data

How the results depend on the processing

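Of 83 values recomputed under alternatives, 69 stayed within the counting interval of the reported value, or within 1.5 times for the number of peaks, and 14 moved beyond it. The share of pairs with a peak was 84.6% to 87.8% under all alternatives but 1, and it was 83.4% when overlapping pairs were added. The share of single coding TSSs was 31.4% within 500 bp, 33.9% within 2 kb and 31.2% with overlapping pairs taken out. Peaks between the TSSs made up 77.5% when the nearest edge of the peak was used and 48.5% with overlapping pairs, against 55.6%. The median distance between TSSs was 137 bp in bound and 133.5 bp in unbound pairs for a largest distance of 500 bp, 185 and 281 bp for 2 kb, and 99 and 81 bp with overlapping pairs, so the order of bound and unbound pairs depended on the pairs taken in. The median CpG ratio of bound pairs was 0.776 for a largest distance of 2 kb and 0.850 over a window of 500 bp. Merging peaks within 500 bp left 743 peaks at the pairs. No paired analysis was possible because the list joins both samples and holds no replicate. The unknown depth and threshold limit every statement on a missing peak, and transcript levels were not analysed here.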

Other observations

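Pairs rich in CpG but without a peak were few. Of the 366 pairs with a CpG ratio over 0.8, 18 had none. In 12 of these 18 pairs, or 66.7% (43.7 to 83.7), at least 1 gene was a model named Gm or by a RIKEN clone, against 77 of 348 bound pairs, or 22.1% (18.1 to 26.8). Both this class and this kind of gene were chosen after the values were seen. The partners of such models included Hmx1 and Tle3, which encode transcription regulators of development, Marcks, a protein kinase C substrate, and Bai3, an adhesion receptor of neurons. Over all CpG ratios, pairs with a gene model of this kind had a peak in 155 of 207 cases, or 74.9% (68.6 to 80.3), and such models outside pairs in 15.4%. The pairs count a peak near either gene, so these shares differ in unit.

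Among the 6 pairs without such a model were Hadha-Hadhb, Ndufa1-Rnf113a1, Gpc2-Stag3, Tmed8-Samd15 and 2 histone pairs. Hadha and Hadhb, which encode both chains of the mitochondrial trifunctional protein of fatty acid oxidation, start 86 bp apart with a CpG ratio of 0.834, and the nearest peak lay 77349 bp away.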
